A study of Mus musculus with 16 samples.

Results

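Translation initiation factors are the proteins that bring a ribosome to the start codon of an mRNA. Their genes were followed here in cortical microglia of mice fed PLX3397. The set held every protein-coding autosomal gene of the deposited table whose symbol begins with Eif1 to Eif6, with the Eif2ak kinase genes left out, 48 of 53850 genes in all. All 48 passed the filter on low values (at least 10 in at least 4 of 16 libraries), as did 19594 genes in the whole table. By the rule, 3 genes of this kind on the sex chromosomes and the 4 kinase genes were not members.

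In initiation, eIF2 carries the initiator tRNA with GTP to the small ribosomal subunit, and eIF2B, its exchange factor, reloads eIF2 with GTP. The eIF4 proteins bind the mRNA cap (eIF4E), hold the complex together (eIF4G) and unwind the mRNA (eIF4A), while eIF3 joins the mRNA complex to the small subunit and eIF1, eIF1A and eIF5 set which start codon is accepted. The mTORC1 pathway acts on the cap step through the eIF4E binding proteins, and the eIF2 kinases act on the eIF2 step. CSF1R, the receptor that PLX3397 inhibits, carries the signal that microglia need to survive.

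Cortices of C57BL/6J mice were the source. The animals, males and females, had been fed either control chow or chow containing PLX3397 over 1 week, so that 4 groups of 4 libraries were compared: male control, male PLX3397, female control and female PLX3397. Microglia were sorted from the cortex by flow cytometry, so all groups are the cells that were left and that passed the sort. Neither the gate, the ages nor the number of animals behind a library is in the labels, and p-values therefore measure the spread between these samples, which may be technical in part. In bulk libraries, fewer cells of a type and less RNA per cell cannot be told apart.

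Values are the authors' normalised read counts. They summed to 32641500 to 44162200 per library, and to 32641500 to 39584100 in male PLX3397 libraries, the group with the lowest sums. Summed over 10 microglial markers, none of them at 0 in any group, the share of the total was 5.83 to 6.09% in male controls, 3.30 to 4.13% in males on PLX3397, 5.71 to 6.19% in female controls and 4.21 to 4.75% in females on PLX3397. The 10 neutrophil markers made up 0.00122 to 0.00851%, 0.0260 to 0.203%, 0.000467 to 0.000706% and 0.00232 to 0.00781% in the same order. Of these markers Ly6g was at 0 in all male controls, and S100a8, S100a9, Ly6g, Retnlg, Ltf and Mmp8 were at 0 in all female controls. Mitochondrial transcripts took 0.312 ± 0.0153%, 0.625 ± 0.0387%, 0.307 ± 0.0361% and 0.395 ± 0.0449% (SD, n = 4), again in that order. Their part in the results below was not tested. Male PLX3397 replicate 3 stood apart by the highest neutrophil share and male control replicate 4 by Xist, the RNA of the inactive X, at 516 normalised counts where the other males had 14.7 to 31.4 and females 5542 to 10451. Results are therefore also given without both.

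Most initiation factor genes were abundant. A mean of at least 1000 normalised counts over the 16 libraries was reached by 44 of the 48. Per kilobase of transcript (median coding transcript in GENCODE M21), Eif1, which guards start codon choice, was highest at 10299.9. Eif5a, which helps ribosomes past stalling stretches, followed at 7944, and Eif4a1, the main helicase of the cap complex, at 7646. The lowest on this scale were Eif4ebp3 at 73.2, Eif5a2, a paralog of Eif5a, at 56.8, and Eif4e1b, an eIF4E form known from oocytes, at 8.89. Without scaling by length the highest mean was that of Eif4g2 at 18496 normalised counts. Of the 50-base runs of their longest transcripts, Eif1 shares 31.6%, Eif5a 7.1% and Eif4a1 65.3% with other genes. Together the 48 genes took 0.431 ± 0.00506% of a library's total in male controls, 0.433 ± 0.00597% in males on PLX3397, 0.457 ± 0.00951% in female controls and 0.474 ± 0.0212% in females on PLX3397 (SD, n = 4).

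**Figure D1:**
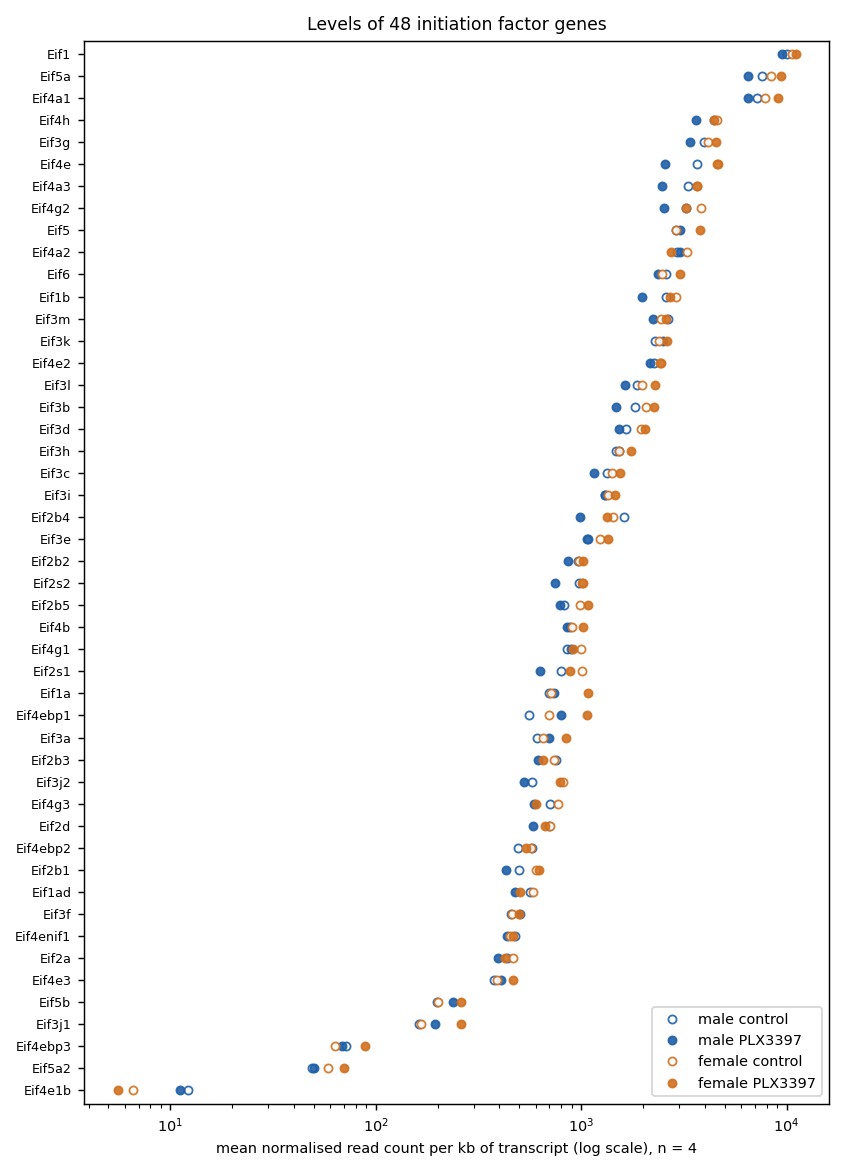
Mean normalised read count per kilobase of transcript (x axis, log scale, n = 4 libraries per point) for each of the 48 initiation factor genes (y axis, ordered by the mean over all libraries), with a point per group. Eif1, Eif5a and Eif4a1 lead in every group, and Eif4e1b is lowest in every group.

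Sequence just before the annotated start was available for 36 of the 48 genes in RefSeq's promoter table (GRCm38.p6). Over the 250 bases before the start, on both strands, the GC box GGGCGG stood in 26 of the 36 (72.2%), against 55.0% of 10916 tested coding genes and 32.9% of all 27025 promoters. The ETS core CCGGAA stood in 13 (36.1%), against 21.0% and 12.2%. The E-box CACGTG stood in 7 (19.4%), against 7.9% and 6.0%. The cyclic AMP element TGACGTCA was in none of the 36, against 2.6% and 1.6%. A match is a description of letters, not of a site. Only the first listed start of a gene was read.

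Windows of a pair of genes that turn up in the comparison of the sexes below are shown, 5′ to 3′ on the gene's strand, since they differ in these letters. Eif3b encodes a scaffold subunit of eIF3, and its window (chr5:140419055-140419304, plus strand) holds TATAAA (capitals) 177 to 172 bases before the start, a run found in 3 of the 36 (8.3%), 7.8% of tested coding genes and 13.0% of all promoters. The Eif4a1 window (chr11:69672424-69672673, minus strand) holds, in capitals, CACGTG, AAGATGGC (the letters of a YY1 motif, in 1 of the 36, 2.8%, against 1.9% and 1.6%) and GGGCGG. None of these runs overlaps another.
Eif3b: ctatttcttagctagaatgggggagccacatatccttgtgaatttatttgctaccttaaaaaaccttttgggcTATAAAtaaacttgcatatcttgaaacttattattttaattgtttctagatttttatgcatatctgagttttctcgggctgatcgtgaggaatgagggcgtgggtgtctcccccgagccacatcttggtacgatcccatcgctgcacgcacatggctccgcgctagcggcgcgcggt
Eif4a1: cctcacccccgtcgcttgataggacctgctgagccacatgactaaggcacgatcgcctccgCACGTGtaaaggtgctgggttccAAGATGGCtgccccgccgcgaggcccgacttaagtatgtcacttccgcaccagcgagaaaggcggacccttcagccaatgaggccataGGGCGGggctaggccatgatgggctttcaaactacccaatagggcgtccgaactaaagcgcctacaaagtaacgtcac

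In males, 4 initiation factor genes were lower on PLX3397 than on control chow and none was higher by limma with Benjamini-Hochberg adjustment over all genes (adjusted p under 0.05). They were Eif2b4, Eif4a3, Eif1b and Eif4g2. The split moved with the scaling of the libraries: 1 was called higher and 2 lower after upper-quartile scaling, 2 higher (Eif4ebp1 and Eif5) and 1 lower after quantile normalisation, and 1 higher and 1 lower on equal library totals. Of all tested genes 5.27%, 5.31% and 6.88% were called higher under these scalings in that order. The 4 members called on deposited values are 8.33% of the 48. On those values 7.52% of all tested genes were called lower (4.16% higher), so the share of members is near that of all genes. Among the 6659 tested genes with a mean of at least 1000, 17.4% were lower and 5.74% higher. In the same comparison 15 members (20, 20 and 27 after upper-quartile scaling, quantile normalisation and equal library totals) had a fold change above 0, and their median was -0.14 on the log2 scale, against 0.021 for all tested genes and -0.13 for the abundant ones. On values scaled to equal library totals the members' median was 0.022, on the other side of 0. That scaling moved the median of all genes to 0.18, and relative to it the members' median lay at -0.16 on deposited values and -0.15 on equal totals (-0.04 after quantile normalisation).

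Eif2b4, the delta subunit of the exchange factor eIF2B (ENSMUSG00000029145), stood at 3085, 3089, 3758 and 2507 normalised counts in male controls and at 1886, 1774, 1852 and 2115 in males on PLX3397. Every male PLX3397 library lay below every male control. The log2 fold change was -0.69 ± 0.14 (SE) with adjusted p = 0.00258, and it passed the threshold in all 27 alternative settings, the highest adjusted p being 0.0147 on equal library totals. Females had 2964, 2556, 2374 and 3124 on control chow and 2743, 2239, 2319 and 2929 on PLX3397, groups that overlap, with -0.11 ± 0.14 and adjusted p = 0.774. The gene overlaps Snx17 on the other strand, a sorting nexin gene of higher level. Of the 50-base runs of the longest Eif2b4 transcript, 7.8% occur in Snx17. The strand of the counting is not given in the sources used here, so reads from the shared stretch cannot be told apart. What part of the Eif2b4 counts such reads make up was not tested. Snx17 moved in the same comparison by -0.86 ± 0.10 (adjusted p = 1.82e-05).

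All 5 eIF2B subunit genes had log2 fold changes below 0 in males, from -0.69 to -0.059 with a median of -0.22, and 1 of 5 was called. Under the 3 other scalings Eif2b5 lay above 0 (0.015 to 0.10) and the others below. A further group of 4 held Eif2s1 and Eif2s2, which encode subunits of eIF2, and Eif2a and Eif2d, which do not. These 4 genes ranged from -0.39 to -0.18 in males, with -0.32 for Eif2s1 and -0.39 for Eif2s2. They lay below 0 under all 4 scalings, and none was called. Eif2a (mean 987) overlaps Serp1 (11113) on the other strand, and Eif2d (1427) overlaps Rassf5 (7808). Of the 50-base runs of its longest transcript, Eif2a shares 1.0% with Serp1 and Eif2d 1.1% with Rassf5. Reads from those stretches cannot be told apart either. For Eif2s2, 27.8% of the 50-base runs of its longest transcript occur in another gene. Eif2s1, the alpha subunit on which the eIF2 kinases act, stood at 2789.5, 3447, 2446 and 2150.1 in male controls and 2262, 1984, 1884 and 2475 in males on PLX3397, which overlap (adjusted p = 0.311). In females neither group had a called gene.

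Eif4a3, the helicase at the core of the exon junction complex, stood at 4687, 5533, 5069 and 4742 in male controls. On PLX3397 the males had 4169, 3246, 4066 and 3516. The groups do not overlap, and the gene fell by 0.42 on the log2 scale (SE 0.12, adjusted p = 0.0276). The call ended after quantile normalisation (adjusted p = 0.0799) and on equal library totals (0.114), and without male control replicate 2 or 3 or male PLX3397 replicate 2 or 4. It held without both libraries that stood apart (adjusted p = 0.0496).

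Eif1b, a close relative of the start codon factor Eif1, stood at 2659, 2774, 2545 and 2760.1 in male controls and at 2231, 1667, 2095 and 2166 in males on PLX3397. All male PLX3397 libraries were below all male controls. The change was -0.40 ± 0.12 with adjusted p = 0.0424, and it was -0.25 with adjusted p = 0.137 on equal library totals. Eif4g2, a scaffold that lacks the eIF4E binding site of its paralogs, had 18763, 19343, 18868 and 17402 in male controls and 15448, 12006, 14394 and 16770.5 on PLX3397. Again the male groups did not overlap. Its change was -0.35 ± 0.11 with adjusted p = 0.0423, and after quantile normalisation it was -0.14 with adjusted p = 0.387. Both calls ended without the libraries that stood apart (adjusted p = 0.133 for Eif1b and 0.101 for Eif4g2) and were made in 11 and 12 of the 27 alternative settings. Without male control replicate 2 or 3, or without male PLX3397 replicate 2, Eif2b4 alone of the 4 was called.

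Others came close in males without passing. Eif4h, a cofactor of the eIF4A helicases, had -0.30 ± 0.10 (adjusted p = 0.0547), and Eif3b had -0.31 ± 0.10 (adjusted p = 0.0683). Eif4e, the cap-binding protein itself, stood at 3934, 2771, 2687 and 2195 in male controls and 2299.7, 1777, 2084 and 1913 in males on PLX3397. The PLX3397 group was the lower in mean, but its highest library lay above the lowest control, and the change of -0.50 ± 0.17 had adjusted p = 0.0723. Of the 48 genes, groups did not overlap for 7 that were lower and 1 that was higher on PLX3397 in males. Over all tested genes these shares were 9.84% and 7.71%. Among the 6659 genes with a mean of at least 1000, 1379 were wholly lower and 528 wholly higher.

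In females, 3 initiation factor genes were higher on PLX3397 and none was lower. They were Eif1a and Eif5, both of the start codon scanning step, and Eif4ebp1, a repressor of eIF4E. These are 6.25% of the 48, beside 2.67% of all tested genes called higher and 2.67% called lower, and 4.85% called higher and 5.3% called lower among abundant genes. A fold change above 0 was found for 34 members (32 to 36 under other scalings), with a median of 0.089 against -0.0032 for all genes. Without female control replicate 2 these were 28 members and 0.033, against 0.0020 for all genes, and without female PLX3397 replicate 3 they were 29 and 0.052. The 3 genes were called under each of the 4 scalings tried.

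Eif1a, the factor that binds the decoding site and promotes scanning, stood at 1452, 1465, 1339.7 and 1335 in female controls and at 2169.7, 1830.2, 2141 and 2276 in females on PLX3397. All treated females were above all control females. The change was 0.59 ± 0.13 with adjusted p = 0.0125, and it passed in all 27 alternatives, with adjusted p of at most 0.0386. In males the values were 1156, 1439, 1201 and 1644 on control chow and 1354, 1266, 1503 and 1663 on PLX3397, which overlap (0.10 ± 0.13, adjusted p = 0.72). The difference between the responses of the sexes was 0.49 ± 0.19 and did not pass (adjusted p = 0.372).

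Eif5, which makes eIF2 hydrolyse its GTP at the start codon, had 11229, 9673, 11253 and 8949.8 in female controls. It had 13927, 13471, 12564 and 13876 in females on PLX3397, above every control. The change was 0.39 ± 0.090 with adjusted p = 0.0142, and the call ended only in a fit to the female groups alone (adjusted p = 0.0517) and without female control replicate 4 (0.0527), of 27 alternatives. Male libraries had 11353, 10958, 9359 and 9323 on control chow and 10581, 11079.5, 10583 and 10698 on PLX3397. These overlap, and the male change was 0.073 ± 0.090 (adjusted p = 0.688), but 0.30 and called after quantile normalisation (adjusted p = 0.0274). The other genes of the scanning group were not called in females, with Eif1, Eif1b and Eif1ad between -0.25 and 0.041.

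Eif4ebp1 codes for the 4E-BP1 protein, which competes with eIF4G for eIF4E until mTORC1 phosphorylates it. It stood at 1729.5, 1092, 1436 and 1288 in female controls and 2198, 2045, 2390.5 and 1899 in females on PLX3397, and at 1204, 1174, 758 and 1299 and 1521, 1357, 1676 and 1842 in males on the same chows. In both sexes all PLX3397 libraries were above all controls. The female change was 0.64 ± 0.18 (adjusted p = 0.0447) and the male change 0.55 ± 0.18 (adjusted p = 0.0548), so the female change passed the threshold and the male one did not. The difference between them was 0.088 ± 0.25, with a 95% interval of -0.44 to 0.62. The female call was made in 13 of 27 alternatives, with adjusted p up to 0.13 (without female control replicate 2) and 0.0585 without the libraries that stood apart. The male change, not called on deposited values, was called under each of the 3 other scalings, with 0.71 and adjusted p = 0.00817 on equal library totals.

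Binding proteins other than Eif4ebp1 were not called. Eif4ebp2, Eif4ebp3 and Eif4enif1 lay between 0.034 and 0.44 in females and between -0.14 and 0.17 in males. The 3 eIF4G scaffold genes had fold changes below 0 in females under all 4 scalings, from -0.36 to -0.11 on deposited values, and none was called. Eif4g3 was lowest, with 4179.7, 4085, 4544 and 4898 in female controls and 3334, 3673, 3455 and 3273 on PLX3397. These groups do not overlap, and its change was -0.36 ± 0.12 (adjusted p = 0.114). Of the 14 eIF3 genes none was called in either sex, although 13 of 14 were above 0 in females (median 0.11, and 13 under each scaling). In males 5 of 14 were above 0 (median -0.077), and 9 of 14 on equal library totals (median 0.082). Eif3a, its largest subunit, had 3758, 3637, 2791 and 3130.3 in female controls and 4105, 3872, 4693 and 4648 on PLX3397. The groups are apart, with 0.38 ± 0.11 and adjusted p = 0.0634. Eif3j1, a loosely held subunit, had 0.66 ± 0.26 (adjusted p = 0.191). The 4 joining and late factors (Eif5a, Eif5a2, Eif5b and Eif6), which act around the meeting of the subunits or after it, were all above 0 in females, with a median of 0.32, and none was called. Groups did not overlap in females for Eif1a, Eif5, Eif4ebp1 and Eif3a (higher on PLX3397) and for Eif4g3 (lower), 4 and 1 of the 48, beside 5.13% and 5.26% of all genes. Among the 6659 abundant genes these counts were 560 higher and 565 lower.

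**Figure D2:**
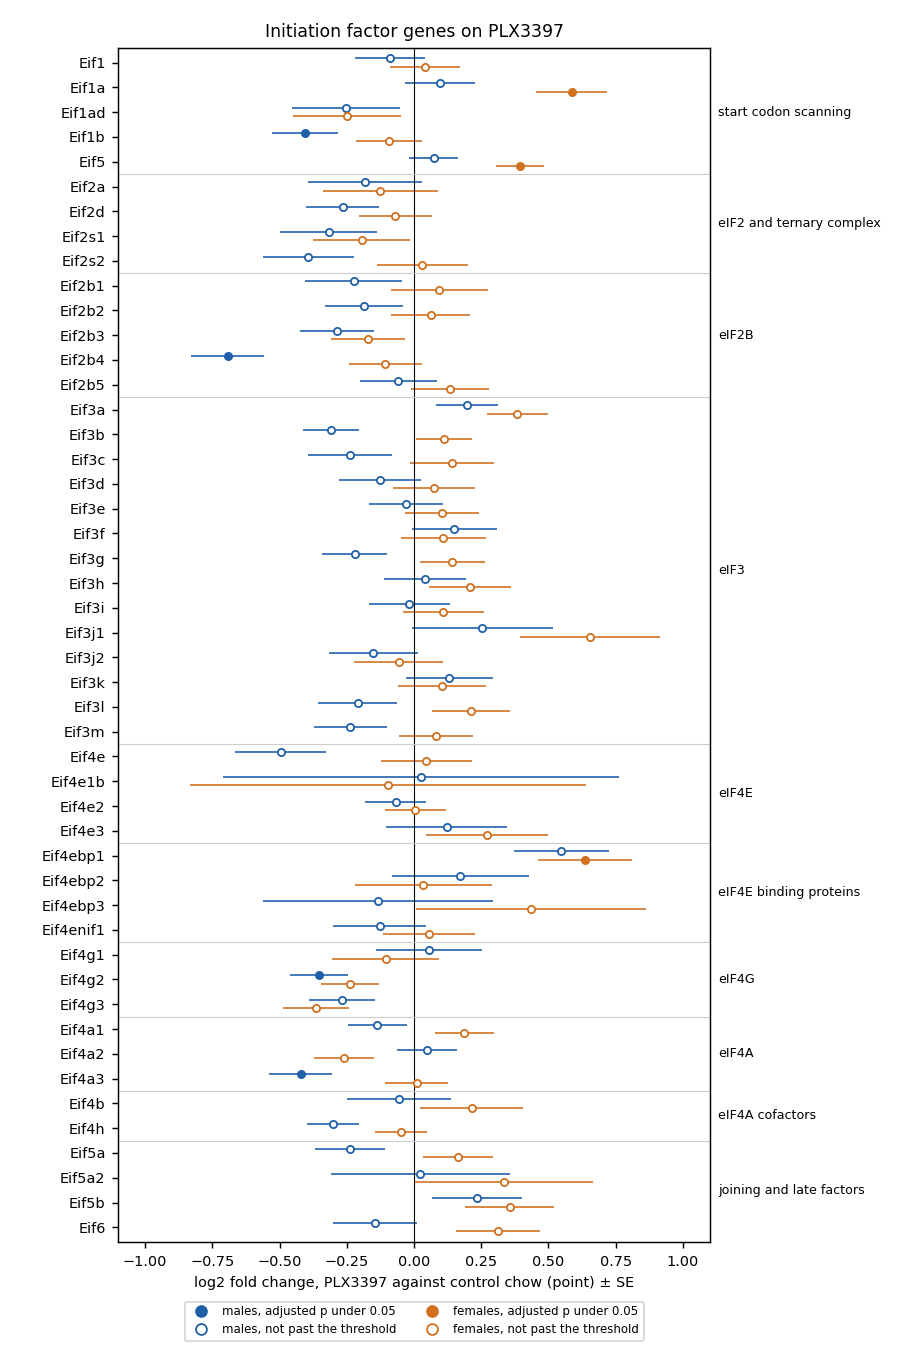
Log2 fold change on PLX3397 against control chow (x axis, point with ± SE bar, 4 libraries per group) for the 48 initiation factor genes (y axis, grouped by role), males in blue and females in orange, filled where limma's adjusted p was under 0.05. Filled points are 4 in males, all left of 0, and 3 in females, all right of 0.

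Females on PLX3397 had more mRNA of 9 initiation factor genes than males on PLX3397, and less of none. They were Eif3b, Eif4e, Eif4a3, Eif4a1, Eif5a, Eif1a, Eif1b, Eif3j2 and Eif5. These are 18.8% of the 48, beside 4.28% of all tested genes called higher in females and 1.15% called lower. Among abundant genes 11.4% were higher and 1.04% lower, beside 20.5% of the 44 abundant members. A fold change above 0 was found for 45 of the 48 (32 on equal library totals), with a median of 0.33 (0.13 on equal library totals) against -0.022 for all genes and 0.19 for abundant ones. The level at which male PLX3397 libraries are set bears on the count: 3 members were called after upper-quartile scaling, 2 after quantile normalisation and 2 on equal library totals, all higher in females. The share of all tested genes called higher in females fell as well, to 1.35%, 1.26% and 1% in that order. Relative to the median of all genes, which equal totals moved to -0.22, the members' median was 0.35 on deposited values, 0.35 on equal totals and 0.14 after quantile normalisation. Eif3b and Eif4e were called under all 4 scalings. These libraries are also those of the responses to PLX3397 above, so the comparisons are not independent.

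Eif3b (ENSMUSG00000056076) stood at 6397, 6055, 7977 and 6123 in females on PLX3397 and at 4625, 4108, 4631 and 4079 in males on PLX3397. Every female library was above every male library. The difference was 0.60 ± 0.10 with adjusted p = 0.00655, and on equal totals 0.40 with adjusted p = 0.0474. Of 27 alternatives only a fit to these groups alone ended the call (adjusted p = 0.0645). On control chow females had 6254, 5234, 6536 and 6474 and males 5348, 5074, 5372 and 5793, which overlap, with a difference of 0.18 ± 0.10 (adjusted p = 0.976).

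Eif4e (ENSMUSG00000028156) stood at 3595, 4069.5, 3349 and 3709 in females on PLX3397, and at 1777 to 2299.7 in males on PLX3397 (given above). The lowest female exceeded the highest male. The difference was 0.87 ± 0.17 with adjusted p = 0.0102, the largest among members that were called, and it passed in all 27 alternatives with adjusted p of at most 0.0389. Female controls had 4325, 2649, 3789.6 and 3694, and the difference between the control groups was 0.33 ± 0.17 (adjusted p = 0.976). Per kilobase, the group means of Eif4e were 3655 in male controls, 2547 in males on PLX3397, 4560.5 in female controls and 4645 in females on PLX3397. For eIF3 as a whole, 2 of 14 genes were called, Eif3b and Eif3j2, and 1 under each of the 3 other scalings. The fold change of females against males on PLX3397 was above 0 for 14 of 14 on deposited values (median 0.36), for 12 after upper-quartile scaling (0.21) and quantile normalisation (0.22), and for 11 on equal library totals (0.16). The other cap-binding members Eif4e2, Eif4e3 and Eif4e1b were not called in any comparison.

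For the helicases, Eif4a3 had 5619, 5189, 6319.9 and 5041 in females on PLX3397, all above the males on PLX3397 (0.57 ± 0.12, adjusted p = 0.0145). Eif4a1 had 18257, 15496, 18019 and 12465 in females and 12575, 11019, 10724 and 11834 in males on PLX3397. Female replicate 4 lay just below the highest male, so these groups overlap, and the difference was 0.46 ± 0.11 (adjusted p = 0.025). Eif4a1 shares 65.3% of the 50-base runs of its longest transcript with other genes, mostly a pseudogene, so its reads could be split by the authors' counting. For Eif4a3 this share was 24.4%. Eif4a2, the third helicase, was not called in any comparison.

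Eif5a had 12322, 11284, 14029 and 10457 in females and 7936, 6685, 8399 and 10213 in males on PLX3397. Female values were all above the male ones, by 0.54 ± 0.13 (adjusted p = 0.0258). For the scanning factors, Eif1a differed by 0.54 ± 0.13 (adjusted p = 0.027), Eif1b by 0.46 ± 0.12 (0.0424) and Eif5 by 0.33 ± 0.090 (0.0465), each with groups that do not overlap. Eif3j2 had 1971, 1502, 1968 and 2058 in females and 1376, 939, 1590.5 and 1111 in males on PLX3397, which overlap. Its difference was 0.60 ± 0.16 (adjusted p = 0.0457), but 91.8% of its 50-base runs occur in other genes, chiefly Eif3j1, and the split of reads between this pair is uncertain. In all, 13 of 48 genes had female values wholly above male values on PLX3397 and none wholly below, where 6.76% and 5.36% of all genes did. Among the 6659 abundant genes 1077 were wholly above and 149 wholly below.

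The count of 9 moved with single libraries. Without male PLX3397 replicate 2, the library with the lowest total, Eif3b and Eif4e were the members called, 2 in place of 9. Without male PLX3397 replicate 3 the calls were 4, and without it and male control replicate 4 also 4: Eif3b, Eif4e, Eif4a3 and Eif3j2. Leaving out female PLX3397 replicate 1, 3 or 4 gave 5, 3 and 5, and leaving out male PLX3397 replicate 4 gave 12. The share of all tested genes called higher in females moved too, from 4.28% on all 16 libraries. It was 1.38% without male PLX3397 replicate 2, 1.95% without replicate 3 and 1.46% without both libraries that stood apart. Without female PLX3397 replicate 1, 3 or 4 it was 3.21%, 1.96% and 2.71%, and without male PLX3397 replicate 4 it was 5.27%. On PLX3397, 7 of 10 neutrophil markers were called lower in females than in males, beside 1.15% of all tested genes. Of the microglial markers 8 of 10 were called higher in females, beside 4.28% of all tested genes. Whether either bears on the initiation factor genes was not tested.

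**Figure D3:**
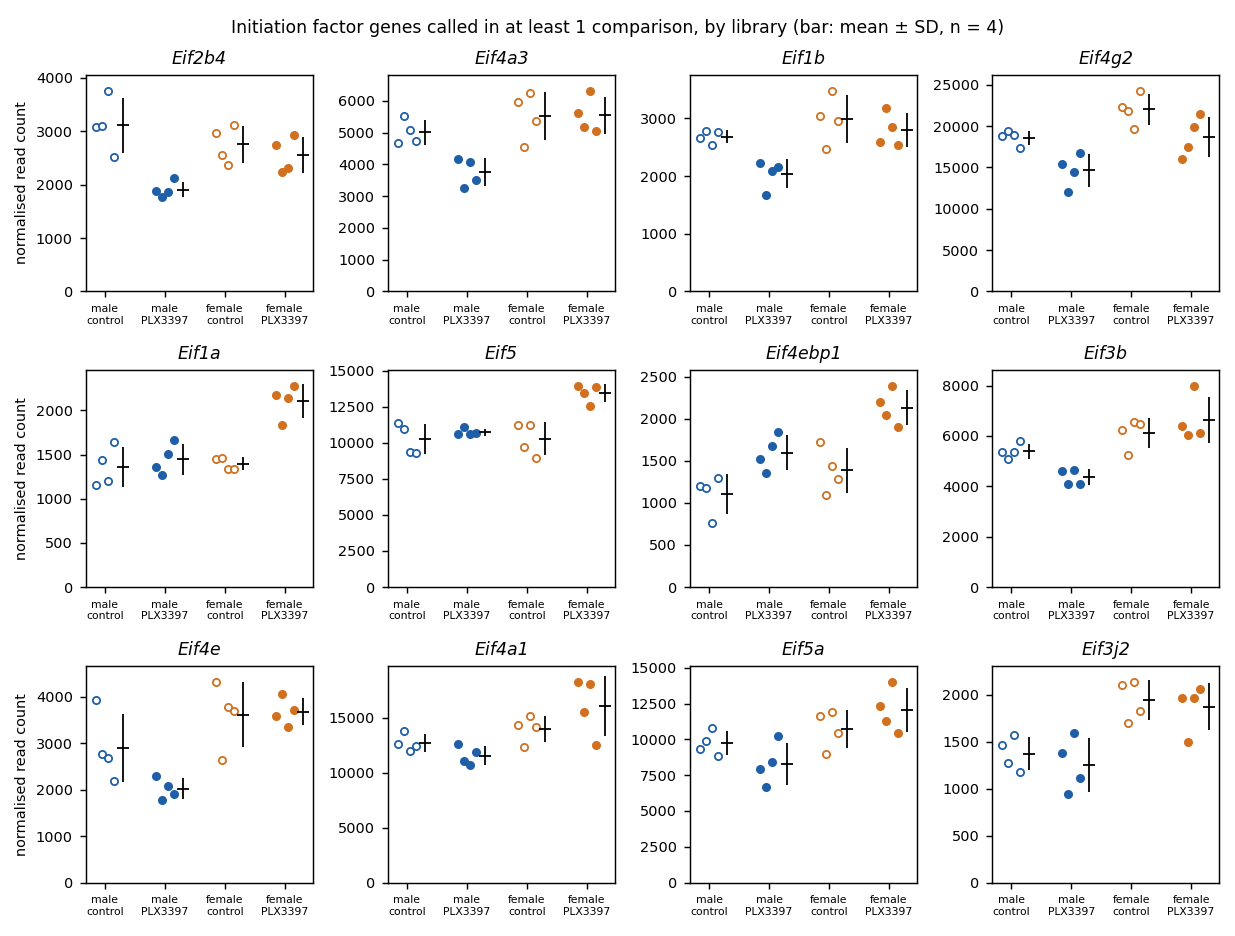
Normalised read counts (y axis, from 0) in each of the 16 libraries for the 12 initiation factor genes called in at least 1 comparison, by group (x axis), with open points on control chow, filled points on PLX3397, and a bar for mean ± SD (n = 4). Eif2b4, Eif4a3, Eif1b and Eif4g2 are low in the male PLX3397 group, and Eif1a, Eif5 and Eif4ebp1 are highest in the female PLX3397 group.

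**Figure D4:**
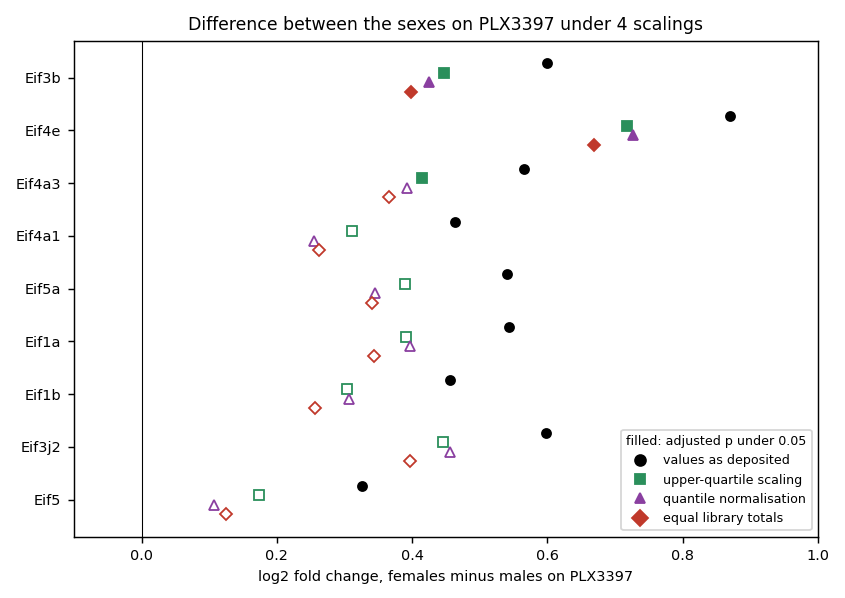
Log2 difference between females and males on PLX3397 (x axis) for the 9 genes called on deposited values (y axis), under 4 scalings of the libraries, filled where limma's adjusted p was under 0.05. All points lie right of 0, and only Eif3b and Eif4e are filled under every scaling.

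On control chow, no initiation factor gene was called different between the sexes by limma. An unadjusted limma p under 0.05 was found for 2, beside 1017 of the 19594 tested genes and 324 of the 6659 abundant ones. Over all tested genes 0.0663% were called, 0.0153% higher and 0.051% lower in females. Eif3j2 had 2106, 1702, 2141 and 1832 in female and 1465, 1273, 1574 and 1183 in male controls, wholly apart (0.50 ± 0.16, adjusted p = 0.833). Eif4g2 was also apart, at 22244, 21804, 19683 and 24284 in female controls against the male controls given above (0.24 ± 0.11, adjusted p = 0.95). These 2 were the members whose control groups did not overlap, beside 1.76% of all genes higher and 1.8% lower in females. Among the 6659 abundant genes 168 were wholly higher and 82 wholly lower in females. Of the 48 fold changes 40 were above 0, with a median of 0.067 (30 and 0.016 after upper-quartile scaling). Of the 6659 abundant genes 4137 were above 0, with a median of 0.043, and the median of all tested genes was -0.0064. The members' median was 0.031 without female control replicate 1, 0.14 without female control replicate 2 and 0.10 without male control replicate 1.

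When the response of females was set against that of males in 1 model, no initiation factor gene was called, nor was any of the 19594 tested genes (0%). At an unadjusted limma p under 0.05 there were 7 members, beside 2010 of the 19594 tested genes and 1125 of the 6659 abundant ones. Of the 48 differences 41 were above 0, as were those of 4527 of the 6659 abundant genes. The members' median was 0.19, against 0.011 for all genes and 0.14 for abundant genes. On equal library totals 28 of 48 were above 0, with a median of 0.029, while that of all genes was -0.15. Eif2b4 had the smallest adjusted p, 0.301, at a difference of 0.59 ± 0.19 with a 95% interval of 0.18 to 0.99. Eif3b followed with 0.42 ± 0.15 (0.11 to 0.73) and Eif1a with 0.49 ± 0.19 (0.10 to 0.88). A response that differed between the sexes was therefore not called for any member at this spread, and the intervals show how large it could be.

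Genes that act on or beside the initiation factors were followed as a list of 47, all of them tested. In males 7 were lower and 2 higher on PLX3397 (Deptor and Gigyf2, the latter named only because the count is small). In females Eef2k was lower and Trib3 higher, and on PLX3397 females were higher for 8 and lower for 1 of the 47. The background shares of called genes are those given above for each comparison (11.7%, 5.34% and 5.43% in either direction). Among genes with a mean of at least 1000 they were 23.2%, 10.2% and 12.4%.

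The 4 eIF2 kinase genes, Eif2ak1 to Eif2ak4, were not called in either sex on deposited values. Eif2ak2, the kinase that senses double-stranded RNA, was highest of them in males, with 0.51 ± 0.18 (adjusted p = 0.0864), and it was called after upper-quartile scaling (adjusted p = 0.0476) and on equal library totals (0.0218). Of the phosphatase subunits that undo eIF2 phosphorylation, Ppp1r15b, the constitutive one, stood at 4913, 5209, 4145 and 4326 in male controls and 3277, 2935, 4013 and 3458 on PLX3397. The groups do not overlap, and the change of -0.45 ± 0.11 had adjusted p = 0.0159, but 0.15 on equal library totals. Ppp1r15a, the stress-induced one, had 0.60 ± 0.21 in females (adjusted p = 0.119).

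Eef2k, the kinase that inhibits elongation factor 2, was lower in both sexes. It stood at 11728, 10433, 12572 and 11316 in male controls and 7377, 6308, 7425 and 7457 in males on PLX3397. Female controls had 11379.8, 9365, 12043 and 12098 and females on PLX3397 5979, 6409, 6939 and 8606. No treated library reached a control of its sex. The change was -0.69 ± 0.12 in males (adjusted p = 0.000732) and -0.69 ± 0.12 in females (adjusted p = 0.00144), called in all 27 alternatives in each sex. The difference between these responses was -0.0016 ± 0.16 with a 95% interval of -0.35 to 0.34.

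Of 13 initiation partners 4 were called lower in males (Bzw1, Bzw2, Denr and an X-linked gene) and 1 higher (Gigyf2), and of 9 elongation and termination genes 2 were called lower (Eef2k and Gspt1). Over all tested genes 7.52% were called lower and 4.16% higher in males, and among abundant genes 17.4% and 5.74%. Gspt1, the release factor eRF3, stood at 5033, 5991, 5849 and 5363 in male controls and 3836, 3761, 3959.6 and 3929 on PLX3397, groups that lie apart (-0.52 ± 0.086, adjusted p = 0.000649). Bzw1 and Bzw2, which mimic part of eIF5 and compete with it, changed by -0.65 ± 0.14 (adjusted p = 0.00563) and -0.65 ± 0.15 (0.00684). Denr, which works in reinitiation, changed by -0.69 ± 0.16 (adjusted p = 0.00885). These 4 were called in males in all 27 alternatives. In females the changes were -0.16 ± 0.086, -0.084 ± 0.14, -0.0066 ± 0.15 and -0.42 ± 0.16 in that order, none of them called, and the differences between the sexes' responses did not pass (adjusted p from 0.295 to 0.731).

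Among the genes that feed mTORC1, Deptor, an inhibitor of the kinase, stood at 716, 798, 459 and 544 in male controls and 1032, 1082, 969 and 1132 in males on PLX3397. Every treated male was above every control male. The change was 0.77 ± 0.18 (adjusted p = 0.00893), called in all 27 alternatives. In females the values were 516, 599.9, 570.4 and 697 on control chow and 502, 611, 677 and 758 on PLX3397, which overlap (0.089 ± 0.18, adjusted p = 0.873). On PLX3397 the level in females minus that in males was -0.74 ± 0.18 (adjusted p = 0.0284), and the difference between responses had adjusted p = 0.358. Rptor, the scaffold of mTORC1, had -0.31 ± 0.10 in females (adjusted p = 0.0733) and was not called.

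**Figure D5:**
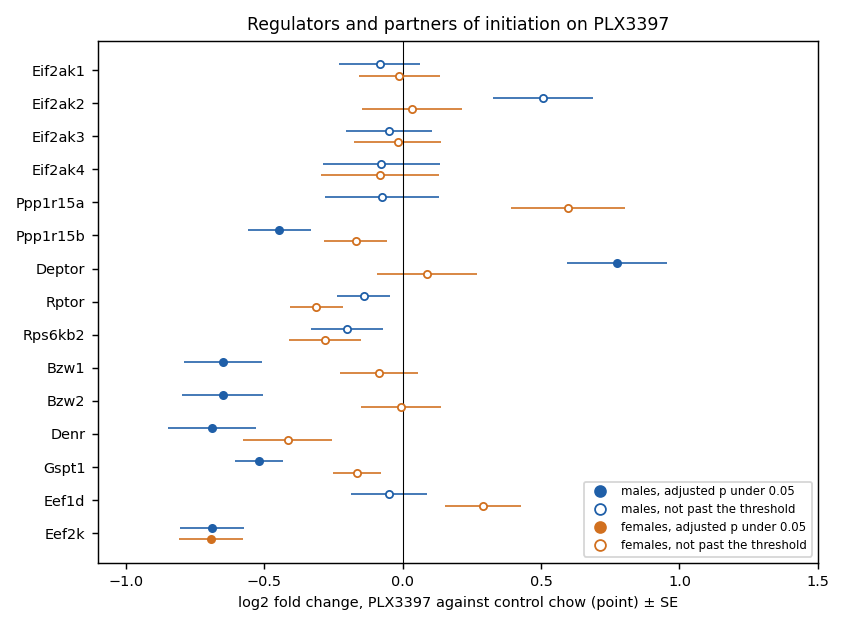
Log2 fold change on PLX3397 against control chow (x axis, point with ± SE bar, 4 libraries per group) for 15 regulators and partners of initiation (y axis), males in blue and females in orange, filled where limma's adjusted p was under 0.05. Eef2k is filled in both sexes and lies at -0.69 in each, and Deptor is the filled point right of 0 in males.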

How the data were processed

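Libraries of 500 pg of microglial RNA (SMARTer pre-amplification, 150 pg of cDNA into Nextera XT) were made per the labels' protocols. The deposited table holds a signal per gene and library, the authors' normalised read counts. The formula is not given in the sources used here. The submitters' processing notes give no role or order for the tools they list (Salmon 1.5.2, STAR 2.7.9a, featureCounts 2.0.1 and Subread, bcl2fastq 2.19.1) or for the build GRCm39. Intervals from counting error were not computed. Symbols, biotypes and lengths came from GENCODE M21 (51029 of 53850 rows matched) and promoters from RefSeq (GRCm38.p6). Two-sided limma 3.58.1 (R 4.3.3, trend on intensity) was run on log2(value + 1) with 1 mean per group over 16 libraries, on genes with at least 10 in at least 4 libraries. The size of fold changes of low genes therefore depends on the added 1. Adjusted p is Benjamini-Hochberg over 19594 genes, and a call is one under 0.05. There were 5 comparisons. Each group has 4 libraries, and no 2 libraries were alike (at most 2.40% identical values). The procedure was tested on simulated data. Genes named with values are members called in any comparison, the 6 members with the smallest p in each, the 3 highest by mean, and genes of the 47-gene list picked the same way by call and p. Snx17, Eif2s2, Eif4e2 and similar names outside this rule are mentioned for counts or overlap only. Group means of Atf4, Chac1 and Ddit3 complete the list of stress readouts. Members and lists were chosen with earlier results of these data known. Figures used matplotlib in Python.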

Additional observations from a re-analysis of the deposited data

Results flagged for a closer look

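Among 144 pairs of a gene and a group of 4 libraries, 7 had a library far from the other 3, by a gap that passed Dixon's criterion for 4 values. Chance gives about 1 in 20, and 7 of 144 is near that share. Eif3j2 in females on PLX3397 was 1502 in replicate 2, where the others had 1968 to 2058. Among the genes that act beside the initiation factors, Bzw1 in female controls was 7255 in replicate 1 (others 8025 to 8108). Eef2k in males on PLX3397 was 6308 in replicate 2 (others 7377 to 7457). Rps6kb2, an S6 kinase gene, was 1831 in female control replicate 4 (others 2229.8 to 2249). Rptor was 10271 in male control replicate 1 (others 9434 to 9520.2). Trib3, a target of the stress factor ATF4, was 53.9 in male control replicate 3, where the others had at most 2.06, and 28.6 in female control replicate 2, where the others were at 0. Whether anything beyond chance set these libraries apart was not tested.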

How the results depend on the processing

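Counts of called initiation factor genes kept within 1.5 times of the reported ones (4 in males, 3 in females, 9 between the sexes on PLX3397) with pseudocounts of 0.5 and 5. In males the count was 2 with no filter on low values, 2 on equal library totals (1 higher, 1 lower), 3 after quantile normalisation (2 higher, 1 lower) and upper-quartile scaling (1 higher, 2 lower), against 0 higher and 4 lower as reported, 2 in a fit to the groups compared alone, 7 with voom weights and 2 without male control replicate 4 and male PLX3397 replicate 3. Of all genes tested in a run, 11.7% were called in males as reported and 11.4 to 11.6% under the 3 other scalings. The share was 5.83% with no filter, 10.4% in a fit to the groups compared alone and 12.7% with voom weights. Without male control replicate 4 and male PLX3397 replicate 3 it was 7.89%. In females the count of members was 1 in a fit to the groups compared alone, where 4.08% of all tested genes were called against 5.34% as reported. Between the sexes on PLX3397 the count of members was 3 with upper-quartile scaling, 2 with quantile normalisation, 2 on equal library totals, 1 in a fit to the groups compared alone and 4 without male control replicate 4 and male PLX3397 replicate 3. The share of all tested genes called fell too, from 5.43% to 3.09%, 2.38%, 2.91%, 0.225% and 1.76% in that order. With each library left out in turn, counts ran from 1 (without male control replicate 2 or 3 or male PLX3397 replicate 2) to 5 in males, from 1 (without female control replicate 4) to 3 in females, and from 2 (without male PLX3397 replicate 2) to 12 (without male PLX3397 replicate 4) between the sexes on PLX3397. Of all genes tested in the runs with the lowest counts, 8.88 to 9.48% were called in males, 4.49% in females and 1.68% between the sexes on PLX3397. In the run with 12 members called the share was 6.35%. For the difference between responses and for the controls, counts of members were 0 in every alternative run. The cause of these shifts was not tested. For single named genes, 4628 of 4855 values under an alternative kept their side of the threshold (147 of these, never called, with another sign), 193 lost a call and 34 gained one, and no called value changed sign.

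Sample numbers are shared between groups, but same-numbered libraries correlated between -0.045 and 0.12 over 24 pairs, and only 2 of 16 libraries correlated best with their own number, so the numbers were not taken to pair samples. With a replicate block the counts were 3 in males, 2 in females and 8 between the sexes on PLX3397. Estimated reads per library ran from 21917700 to 78590300, which limits low members such as Eif4e1b.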

Other observations

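Genes that rise when eIF2 is phosphorylated were followed as a list of 5 stress readouts. In females 1 of 5 was called higher on PLX3397 and none lower, and in males none was called. Of all tested genes 2.67% were called higher and 2.67% lower in females. Female fold changes were above 0 for 3 of the 5 and below 0 for 2. Group means went from 5791 in female controls to 5558 on PLX3397 for Atf4. They went from 12.5 to 3.29 for Chac1 and from 1414 to 1589 for Ddit3. Trib3 stood at 0, 28.6, 0 and 0 normalised counts in female controls and 65.6, 148, 37.9 and 48.7 in females on PLX3397. Each treated female was above each control female. The log2 fold change was 4.83 ± 1.21 (adjusted p = 0.0254, limma), a size that rests on the pseudocount because most controls were at 0, and with voom weights adjusted p was 0.122. In males Trib3 stood at 0, 0.665, 53.9 and 2.06 on control chow and 10.9, 25.3, 53.5 and 40.5 on PLX3397, with adjusted p = 0.162. Asns, asparagine synthetase, stood at 120.2, 75.2, 0 and 80.9 in female controls and 122, 286, 211 and 99.7 in females on PLX3397, which overlap (adjusted p = 0.292).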
